A study of Mus musculus with 2 samples.

Results

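Ribosomal protein genes were taken as the genes with a symbol of the form Rpl, Rps or Rplp followed by a number, with an optional letter a, x, y or l and further digits, together with Rpsa. Pseudogene symbols and the Rps6k kinases were left out, and a gene needed at least 1 protein-coding transcript. Of 55536 annotated genes, 89 had such a symbol and 83 met the whole rule. The 83 genes are 46 of the large ribosomal subunit, 31 of the small subunit and 6 paralogs (Rpl3l, Rpl7l1, Rpl10l, Rpl22l1, Rpl39l and Rps27l), spread over 19 chromosomes. The annotation gives them 498 isoforms.

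Ribosomal proteins are made in the cytoplasm, imported into the nucleus and assembled on ribosomal RNA in the nucleolus, after which the subunits are exported. Their mRNAs are short, are among the most abundant in the cytoplasm of growing cells, and start with a run of pyrimidines (the terminal oligopyrimidine or TOP motif) through which the mTOR pathway controls their translation. Many of their introns also hold small nucleolar RNAs (snoRNAs), which guide the modification of ribosomal RNA.

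The study sequenced total RNA, depleted of ribosomal RNA, from the nucleoplasm of C57BL/6J mouse macrophages grown from bone marrow. All cells received lipid A at 100 ng/ml for 12 h. Lipid A is the membrane anchor of lipopolysaccharide and the ligand of TLR4. A washout of 12 h followed, then a second dose of 100 ng/ml lipid A for 90 min. The labels give 1 group of 2 biological replicates, made from 1 µg (replicate 1) and 500 ng (replicate 2) of RNA. Both carry the same donor entry, so the spread between them may be technical. One label field calls the fraction nucleoplasmic and another calls it nucleus. No other treatment or fraction was analysed here, so the values are levels in this condition, differences are set against the SD between libraries, and no test was made. In bulk RNA, fewer cells of a type and less RNA per cell cannot be told apart.

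The gene counts of the libraries summed to 29400104 in replicate 1 and 17789543 in replicate 2. All 8 macrophage markers reached at least 1 TPM (transcript abundance corrected for length and scaled to a fixed total) in both libraries, and they summed to 1617 TPM in replicate 1 and to 2248 TPM in replicate 2. None of the 22 markers of neutrophils, B cells, T and NK cells, erythroid cells or stromal and endothelial cells did. Their sums over each list were at most 1.13 TPM.

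At least 1 TPM in both libraries was reached by 80 of the 83 ribosomal protein genes (96.4%), against 8499 of 22015 nuclear-encoded protein-coding genes (38.6%). Replicate 1 had a median over the genes of 22.2 TPM, and replicate 2 one of 20.8 TPM (21.5 ± 1.00, SD, n = 2), against 0.18 and 0.25 TPM over nuclear-encoded protein-coding genes. The median of the large-subunit genes was 21.96 ± 1.01 TPM and that of the small-subunit genes 23.3 ± 0.339 TPM (n = 2), a gap close to the spread between libraries. The ribosomal protein genes summed to 1966 TPM in each library. This was 1.14% of the TPM of nuclear-encoded protein-coding genes in replicate 1 and 1.10% in replicate 2. With the mitochondrial-encoded genes in the denominator the shares were 0.964% and 0.648%.

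Proteins of one ribosome are needed in equal numbers, apart from the stalk proteins Rplp1 and Rplp2, but the levels of their genes were not equal. Among the 77 genes other than the paralogs, the lower and upper quartiles were 16.1 and 30.8 TPM in replicate 1 and 15.1 and 32.0 TPM in replicate 2. The highest mean was 16.7-fold the lowest, while the median SD between libraries was 11.7% of the mean. Across 80 genes the order of TPM in the libraries had a Spearman rho of 0.89. Points of that comparison share the annotation and the quantification.

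**Figure D1:**
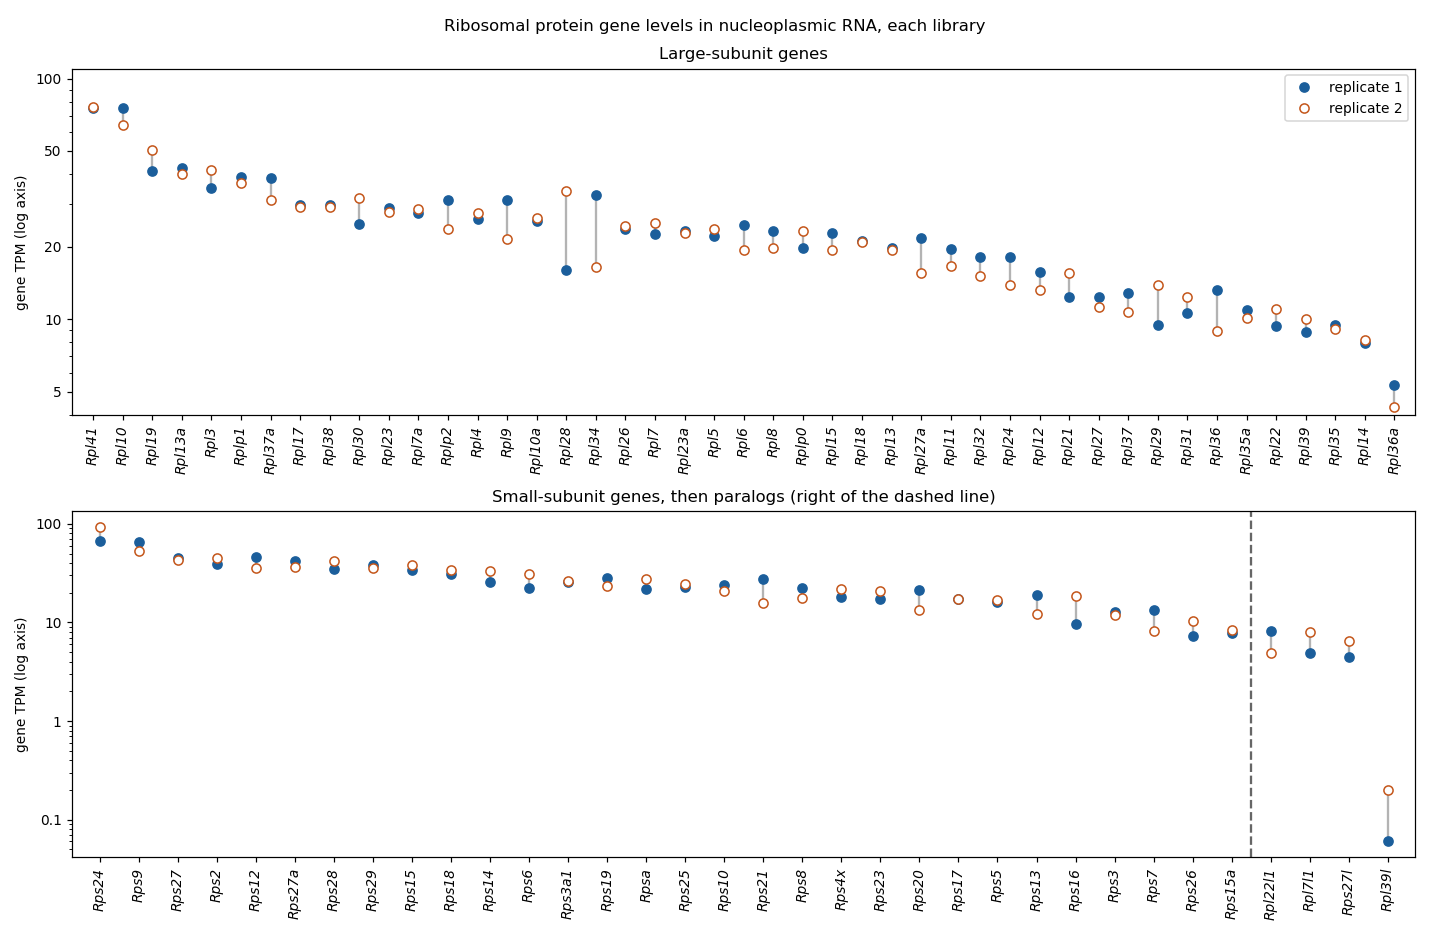
Gene TPM on a log axis for ribosomal protein genes with a level above 0, replicate 1 as filled and replicate 2 as open points, joined by a line. Large-subunit genes are above, small-subunit genes and paralogs below; most of the subunit genes lie between 10 and 50 TPM, and Rpl39l stands far under the rest.

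The top of the order was held by Rps24, Rpl41, Rpl10 and Rps9. Rps24, a small-subunit protein whose human gene is mutated in Diamond-Blackfan anaemia, had 67.1 TPM in replicate 1 and 93.9 TPM in replicate 2. It ranked 350th among nuclear-encoded protein-coding genes. Rpl41, a very short basic peptide of the large subunit, had 75.2 and 76.1 TPM. Rpl10, which joins the large subunit late in its assembly, had 75.5 and 64.4 TPM. The ranges of these 3 genes overlapped, so their order is not resolved. Rps9, which lines the mRNA entry channel, had 64.9 and 53.0 TPM. The next were Rpl19 (45.9 ± 6.54 TPM), Rps27 (44.1 ± 1.63), the entry-channel gene Rps2 (42.0 ± 4.36) and Rpl13a (41.3 ± 1.73, n = 2). Rpl13a is known in human monocytes as part of a complex that silences the translation of inflammatory mRNAs. Neighbours among these 4 did not differ beyond their spread.

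Rps24 is shown because the ends of the annotated reading frames separate isoforms of the gene. Rpl41 is shown because the reading frame of its highest isoform is short enough to print whole. Rps24 is on the plus strand of chromosome 14 (GRCm38, mm10) and Rpl41 on the minus strand of chromosome 10. The first pair of sequences are the last 36 bases of the Rps24 reading frame in the spliced transcript, with the stop codon in capitals, at chr14:24493461-24495432 for Rps24-201 and chr14:24493470-24495786 for Rps24-210. The last is the whole 78-base reading frame of Rpl41-203, over chr10:128548387-128548960, with start and stop codons in capitals.
Rps24-201: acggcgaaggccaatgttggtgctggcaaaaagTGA
Rps24-210: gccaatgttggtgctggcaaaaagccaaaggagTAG
Rpl41-203: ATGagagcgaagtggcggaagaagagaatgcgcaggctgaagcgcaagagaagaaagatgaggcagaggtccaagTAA

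The Rps24 isoforms differ in the last coding exons, so the reading frame of Rps24-210 runs on past the lysine codon at which Rps24-201 stops. Rps24-201 had 32.1 TPM in replicate 1 and 68.9 TPM in replicate 2. Rps24-210 had 13.0 and 12.8 TPM. Rps24-202, whose reading frame ends like that of Rps24-201, had 4.05 and 3.30 TPM. The form that stops earlier was thus the higher one in both libraries, and the difference in gene TPM between the libraries lay in Rps24-201. The direction of that difference depends on the measure. By expected counts with TMM library factors, Rps24 was higher in replicate 1. Its log2 ratio of replicate 1 over replicate 2 was 0.51 (exact binomial 95% interval 0.42 to 0.61, counting error only). Unlike TPM, expected counts are not corrected for isoform length. Retained-intron isoforms held 14.0% of Rps24 TPM in replicate 1 and 5.69% in replicate 2. Why the measures differed was not tested. For Rpl41, isoform Rpl41-203 carried 53.8 and 53.3 TPM of the gene's level.

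Among the 77 genes other than the paralogs, the lowest was Rpl36a (5.33 TPM in replicate 1, 4.30 TPM in replicate 2). The genes of the stalk, which recruits translation factors, reached 19.7 and 23.4 TPM for Rplp0, 39.1 and 36.9 TPM for Rplp1, and 31.2 and 23.6 TPM for Rplp2. Rps27a, which is made as a fusion to ubiquitin, had 41.8 and 36.2 TPM. Rps6, the target of the S6 kinases, had 22.2 and 31.3 TPM. Rpl5 had 22.2 and 23.7 TPM and Rpl11 had 19.6 and 16.6 TPM; with 5S ribosomal RNA these proteins form the particle that inhibits Mdm2. Rps3, which also lines the entry channel, had 12.9 and 12.0 TPM, about the level of Rpl12 (15.7 and 13.3 TPM).

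By the deposited estimate, each paralog lay below the gene it resembles. Rpl22l1 had 8.14 TPM in replicate 1 and 4.93 TPM in replicate 2, against 9.40 and 11.0 TPM for Rpl22, which in the mouse represses Rpl22l1 expression. Rpl7l1 had 4.92 and 7.92 TPM, against 22.6 and 25.02 TPM for Rpl7. Rps27l, known as a p53 target, had 4.41 and 6.49 TPM, against 45.3 and 43.0 TPM for Rps27. The estimates of these 3 pairs did not overlap between paralog and gene, and Rpl22l1 with Rpl22 was the closest pair. The deposited 95% credibility bounds of Rpl22l1, however, were 7.28 to 39.7 TPM in replicate 1 and 4.51 to 76.1 TPM in replicate 2, against 7.92 to 11.4 and 8.73 to 14.1 TPM for Rpl22, so the order of this pair is not resolved. The bounds of the other pairs did not overlap. Rpl39l, known from the testis, was covered by 1 and 3 counts, against 8.81 and 10.02 TPM for Rpl39. Rpl3l, a gene of heart and skeletal muscle, and Rpl10l, a gene of the testis, had 0 counts in both libraries. A count of 0 allows up to 0.102 CPM in the first library and 0.169 CPM in the second, where CPM scales counts by library size; this covers counting error only.

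Near-identical processed copies limit how reads of these genes can be assigned. The annotation holds 298 entries with a pseudogene symbol named after 60 of the 83 genes. It classes 292 of them as processed pseudogenes, transcribed ones included, and 6 as protein-coding. Of the 298, 199 had 0 counts in both libraries and 22 reached 1 TPM in both. Replicate 1 gave them 102 TPM in sum and replicate 2 149.6 TPM, against 1966 TPM for the genes themselves. The highest was Rpl36-ps2, with 13.5 and 9.23 TPM, close to Rpl36 itself at 13.2 and 8.93 TPM. For some copies the level depended on the quantification. Rps12-ps3 had 0.32 and 0.47 TPM here, but 14.3 and 8.64 TPM by kallisto, the second quantification deposited, where Rps12 had 5.48 and 8.84 TPM. Rpl10-ps3 had 1.06 and 4.72 TPM here, and 9.54 and 10.9 TPM by kallisto.

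Promoters in the RefSeq table (GRCm38.p6) were found for 63 of the 83 genes. A run of at least 6 C or T letters within 5 bases of the annotated start was present in 30 of the 63 (47.6%), against 20.7% of 17429 other protein-coding genes. In the 300 bases around the start, CTTTCC on either strand stood in 47.6% of the ribosomal protein promoters and 25.6% of the others. CCGGAAG, the core of the ETS-family site, stood in 39.7% and 11.8%. AANATGGC, the core of the YY1 site, stood in 19.0% and 6.64%. CTTTCC can lie inside a run of C and T letters, so these motifs are not independent. A match describes letters only.

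The 30 bases centred on the annotated start are shown for the 8 genes of highest level, because they show how the run sits at the start in some of these genes and is missing from the annotated position in others. The 16th base is the start and capitals mark the run. In the order printed they lie at chr14:24490663-24490692 (+), chr10:128549154-128549183 (-), chrX:74270801-74270830 (+), chr7:3704026-3704055 (+), chr11:98026695-98026724 (+), chr3:90213634-90213663 (-), chr17:24720048-24720077 (+) and chr7:45128731-45128760 (-).
Rps24: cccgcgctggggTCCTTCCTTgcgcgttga
Rpl41: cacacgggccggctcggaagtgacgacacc
Rpl10: gttgttacagtggaagataggccgcctata
Rps9: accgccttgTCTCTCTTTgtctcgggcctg
Rpl19: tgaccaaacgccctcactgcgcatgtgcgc
Rps27: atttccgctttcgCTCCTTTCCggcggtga
Rps2: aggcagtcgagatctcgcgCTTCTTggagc
Rpl13a: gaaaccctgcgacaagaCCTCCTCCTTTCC

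Isoforms of 4 classes share these genes. The annotation lists 232 protein-coding isoforms, 176 retained-intron isoforms in 64 genes, 65 processed transcripts (no reading frame assigned) in 27 genes, and 25 isoforms marked for nonsense-mediated decay (NMD, the destruction of mRNAs with an early stop codon) in 19 genes. Protein-coding isoforms held 69.9% of the ribosomal protein TPM in replicate 1 and 72.5% in replicate 2 (71.2% ± 1.85, n = 2), against 67.4% ± 1.80 in other nuclear-encoded protein-coding genes. Retained-intron isoforms held 22.1% and 20.2% (21.2% ± 1.35), against 23.9% ± 1.76 in the others. NMD isoforms held 3.003% and 2.76%, against 2.92% ± 0.276 in the others. Summed over genes, the makeup thus lay within a few points of that of other genes.

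Per gene, the retained-intron share had a median of 24.0% in replicate 1 and 21.2% in replicate 2 over the 64 ribosomal protein genes that have such isoforms (22.6% ± 2.00, n = 2). Over 5460 other genes the medians were 28.8% and 32.8% (30.8% ± 2.82). A mean share above 50% was found in 8 of the 64 (12.5%), while 20.4% of all 5524 eligible genes passed it. By kallisto, the second quantification deposited, it was 15 of 64 (23.4%), while 29% of all 5422 eligible genes passed it. The class is the annotators' name for an isoform with intron sequence somewhere in it, and most of its bases can still be exonic. A second measure was therefore taken after the shares were seen: the percent of a gene's counts on bases outside every exon of its protein-coding isoforms, with counts spread evenly along each isoform. By that measure the order was turned round, with a median of 13.8% and 12.3% in ribosomal protein genes (13.1% ± 1.05) and 8.31% and 10.1% in the others (9.22% ± 1.28). Above 50% stood 3 of 64 ribosomal protein genes (4.69%) and 4.92% of all eligible genes. Across the 64 genes the 2 measures had a Spearman rho of 0.63, with the same counts behind both. The second measure uses counts in place of TPM and takes in every isoform class. It does not use the positions of reads, and only annotated isoforms can hold counts. Within retained-intron isoforms alone, 55.2% ± 0.311 of counts lay outside coding exons, against 59.9% ± 4.15 in the other genes (n = 2). Why the order differed between the measures was not tested.

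**Figure D2:**
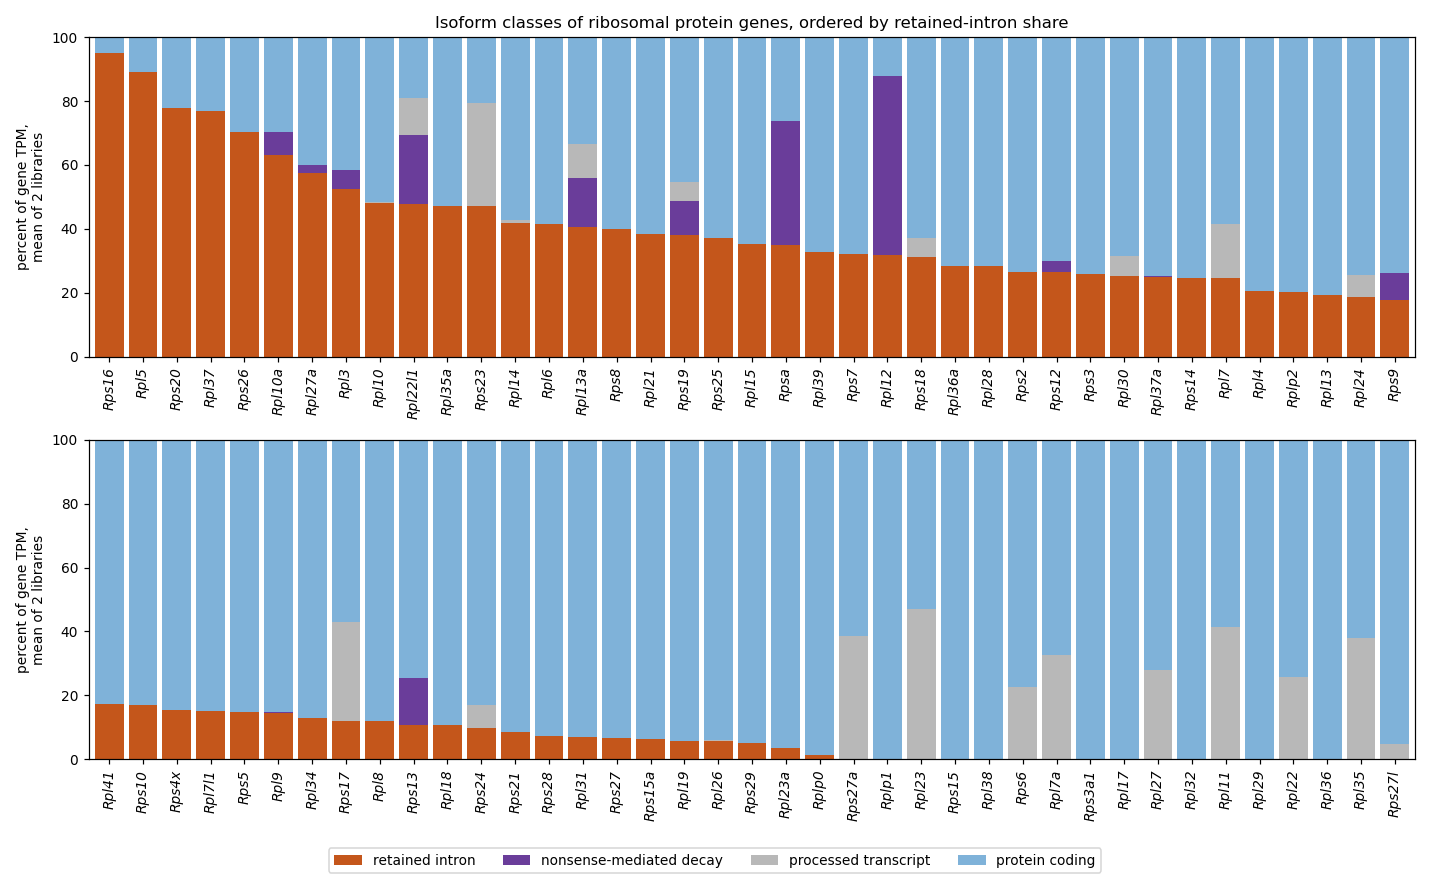
Mean percent of gene TPM in each isoform class (n = 2 libraries) for ribosomal protein genes of at least 1 TPM in both, ordered by retained-intron share. Retained-intron isoforms make up most of the level in 8 genes at the left of the upper panel, and NMD isoforms in Rpl12 (RSEM values).

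The highest retained-intron shares belonged to Rps16, Rpl5, Rps20, Rpl37, Rps26, Rpl10a, Rpl27a and Rpl3. Rps16 reaches into the site that holds the tRNA with the growing chain. Its retained-intron isoforms held 92.8% of its TPM in replicate 1 and 97.0% in replicate 2, the highest share of all. However, these isoforms are mostly exon. Rps16-203 begins inside the first intron, 68 of its 518 bases lie outside coding exons, and it had 6.73 TPM in replicate 1 and 14.2 TPM in replicate 2. Rps16-202 keeps the third intron, which accounts for 89 of its 628 bases, and it had 2.20 and 3.88 TPM. The coding isoform Rps16-201, whose last exon runs 459 bases further, had 0.69 and 0.55 TPM. Only 11.1% and 12.4% of the Rps16 counts fell on bases outside coding exons.

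The retained Rps16 stretches are shown because they are the whole of the sequence of Rps16-202 and Rps16-203 that lies outside coding exons. Both lie on the plus strand of chromosome 7 (GRCm38, mm10). The third intron is at chr7:28352274-28352362, with its first and last pair of bases, the splice-site dinucleotides, in capitals. The opening of Rps16-203 is at chr7:28350924-28350991 and ends with the splice-site dinucleotide, in capitals, before the second exon.
Rps16-202: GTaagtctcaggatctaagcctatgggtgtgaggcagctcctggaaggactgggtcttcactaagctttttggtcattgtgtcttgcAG
Rps16-203: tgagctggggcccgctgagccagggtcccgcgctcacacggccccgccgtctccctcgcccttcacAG

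Rps20 also had a wide gap between the 2 measures. Its retained-intron isoforms held 85.4% of its TPM in replicate 1 and 70.4% in replicate 2, whereas 12.3% and 6.31% of its counts lay outside coding exons. Rps20-201 had 14.1 and 5.95 TPM, with 192 of 582 bases outside, a larger part than in either Rps16 isoform. The coding Rps20-203, at 3706 bases with a long last exon, had 3.15 and 3.94 TPM. With counts spread evenly along isoforms, most counts of Rps16 and Rps20 were therefore placed on sequence that the coding isoform also holds. The positions of reads were not examined.

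Rpl5 differed from both. Its retained-intron isoforms held 89.9% of its TPM in replicate 1 and 88.1% in replicate 2, and 43.6% and 42.6% of its counts lay outside coding exons. Rpl5-204 had 6.44 and 7.76 TPM, with 603 of 1024 bases outside. Rpl5-205 had 5.97 and 6.23 TPM, with 567 of 815 bases outside. The full coding isoform Rpl5-201 had 1.10 and 1.65 TPM. The intron sequence of Rpl5 thus sat in several introns, and its level hardly moved between libraries.

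**Figure D3:**
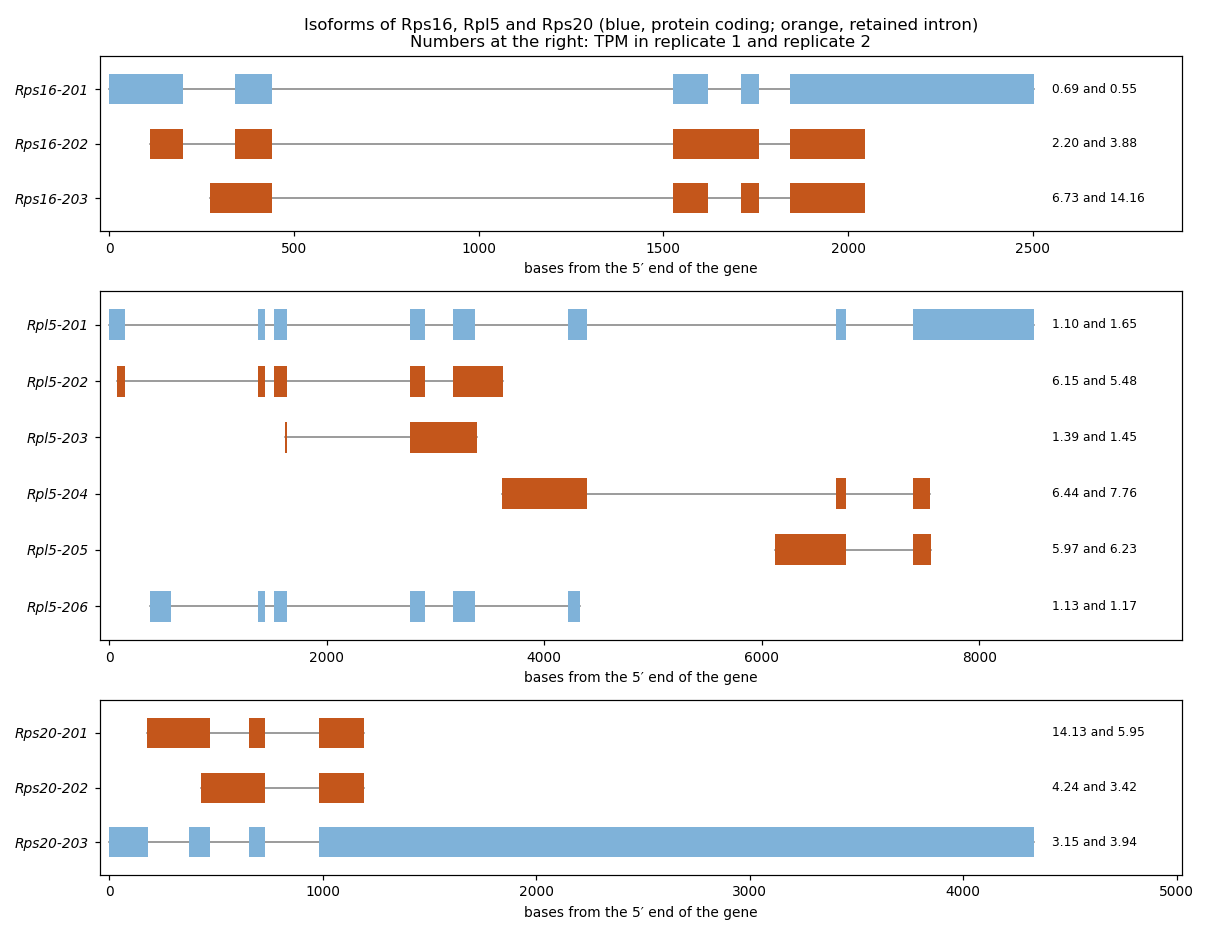
Exons (boxes) and introns (lines) of every annotated isoform of Rps16, Rpl5 and Rps20, by bases from the 5′ end of the gene, with TPM in replicate 1 and replicate 2 at the right. In Rps16 and Rps20 the retained-intron isoforms (orange) are made mainly of the exons of the coding isoform (blue); in Rpl5 whole stretches of intron are added.

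Rpl37 of the large subunit had retained-intron shares of 78.5% and 75.6%, with 46.1% and 44.9% of counts outside coding exons. Rps26, which contacts mRNA near the exit site, had 74.7% and 65.7%, with 41.8% and 27.4% outside. Both therefore had high values by either measure, Rps26 with a wide gap between libraries. Rpl10a, the protein of the mobile L1 stalk, had 65.7% and 60.8%, Rpl27a had 64.3% and 50.6%, and Rpl3 had 46.5% and 58.5%. In Caenorhabditis elegans, rpl-3 and rpl-10a are known to control their own splicing through isoforms that are degraded. For Rpl3, 18.4% and 21.6% of counts lay outside coding exons, and for Rpl10a 39.6% and 37.7%.

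The 3 genes with over 50% of their counts outside coding exons were Rpl35a, Rpl22l1 and Rps19. None had a mean retained-intron share above 50%, and Rpl35a was named after its values were seen. Rpl35a, mutated in some human Diamond-Blackfan anaemia, had 59.9% and 66.4% of counts outside, and its longest retained-intron isoform, Rpl35a-206 with 2410 of 2858 bases outside, had 2.09 and 2.74 TPM. These are RSEM values, and the retained-intron share of Rpl35a was 47.1% ± 4.49 by RSEM but 10.6% ± 0.254 by kallisto (n = 2). Rpl22l1 had 57.5% and 63.2% outside. Its isoform Rpl22l1-208, a single exon over the gene's introns, had 2.82 and 2.23 TPM and was the highest of the gene. Rps19, the gene most often mutated in human Diamond-Blackfan anaemia, had 46.7% and 61.1% outside, and Rps19-207, with 2452 of 2657 bases outside, had 3.23 and 5.78 TPM. At the other end, Rplp0, Rpl23a and Rps29 had mean retained-intron shares of 1.42% ± 2.01, 3.36% ± 3.38 and 4.997% ± 0.68 (n = 2). Their mean percent of counts outside coding exons was at most 4.53%.

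**Figure D4:**
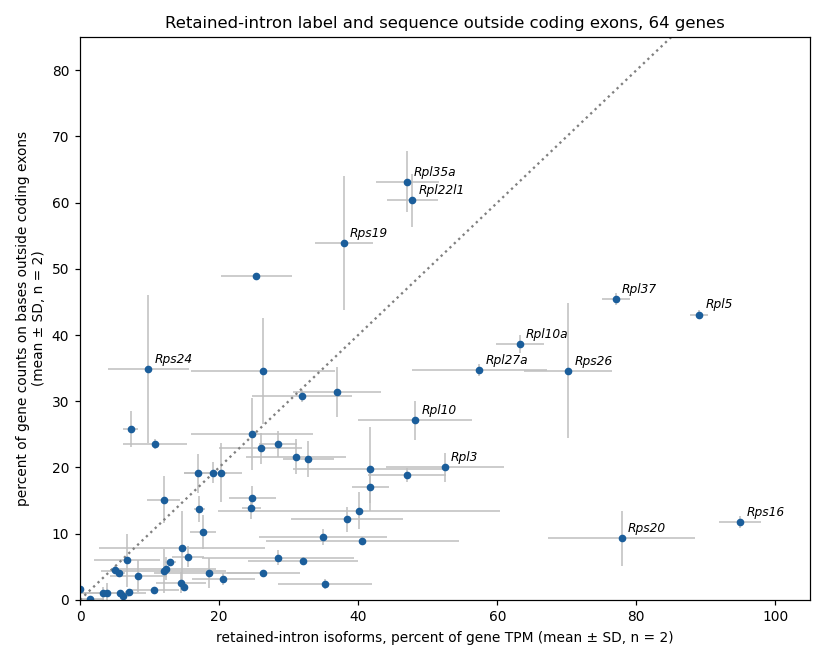
Each point is 1 of 64 ribosomal protein genes, with the percent of its TPM on retained-intron isoforms on the x axis and the percent of its counts on bases outside coding exons on the y axis (mean ± SD, n = 2); the dotted line marks equal percents. Rps16 and Rps20 lie far right and low, Rpl5 and Rpl37 far right and higher, and Rpl35a, Rpl22l1 and Rps19 above the line.

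The snoRNAs within these genes could be followed only in part. Of the 83 genes, 30 hold 58 annotated snoRNA entries, 57 of them in introns of every coding isoform. Effective length, the number of positions a fragment could start from, was 0 in both libraries for 39 entries, so their 0 TPM says nothing about the snoRNA. A level in both libraries was given to 4 entries. Snord15a had 906 TPM in replicate 1 and 494 TPM in replicate 2, and Snord15b had 768 and 255 TPM, both within Rps3, which itself stood at 12.9 and 12.0 TPM. Gm26448 within Rpsa had 221 and 34.5 TPM from 236 and 17 counts, and Gm22270 within Rpl5 had 33.0 and 114 TPM from 2 and 3 counts. Effective lengths of these entries were under 22 bases, so that few counts give a large TPM.

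The genes that hold snoRNAs had higher medians of retained-intron signal than those that do not. The median retained-intron share was 30.8% in replicate 1 and 30.2% in replicate 2 over 25 snoRNA hosts, against 16.4% and 17.2% over 39 other ribosomal protein genes. Counts outside coding exons had medians of 18.4% and 18.1% in the hosts, against 8.79% and 7.67% in the others. For the 5460 genes outside the ribosomal protein set, the median share was 28.8% and 32.8%. Their median of counts outside coding exons was 8.31% and 10.1%. The hosts thus lay close to those genes by the share and above them by counts outside coding exons. By the share, the 39 ribosomal protein genes without a snoRNA lay below those genes. Above 50% by counts outside coding exons were 0 of the 25 hosts and 3 of the 39 others, which include paralogs. Of all eligible genes, 4.92% stood above 50% by this measure. By mean retained-intron share it went the other way, with 6 of the 25 hosts and 2 of the 39 others above 50%. By that share, 20.4% of all eligible genes passed 50%. Median gene levels lay within their spread, at 22.9 ± 0.447 TPM in 30 hosts against 22.1 ± 0.799 TPM in 47 others apart from the paralogs (n = 2). An exon of a retained-intron isoform covers 23 of the snoRNA entries in 20 genes, through 27 isoforms. Those isoforms held 16.3% of the retained-intron TPM of ribosomal protein genes in replicate 1 and 15.5% in replicate 2. Reads of a precursor and of a snoRNA within it were not separated.

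By mean share of TPM, NMD isoforms led in genes that include Rpl12 and Rpsa. In Rpl12, whose human gene and Caenorhabditis elegans counterpart are known to produce NMD isoforms, they held 51.4% of TPM in replicate 1 and 60.3% in replicate 2. Its isoform Rpl12-201 had 8.05 and 7.99 TPM, against 1.81 and 1.71 TPM for the coding Rpl12-203. By kallisto the leading class of Rpl12 was another one: NMD isoforms held 19.3% and 23.0%, and retained-intron isoforms 80.2% and 73.6%. Its gene level was 2.93 TPM by kallisto, against 14.5 TPM here. In Rpsa, the gene also known for the laminin receptor precursor, they held 48.0% and 29.7%, against 28.4% and 41.4% for its retained-intron isoforms, which were thus the higher class in replicate 2. Its isoform Rpsa-206 had 10.4 and 8.23 TPM. Lower NMD shares were found in other genes, with 20.99% and 9.67% in Rpl13a and 11.9% and 17.2% in Rps13.

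The isoform of highest mean TPM was protein-coding in 68 of 80 ribosomal protein genes (85%), against 81.7% of 8419 other protein-coding genes. It was a retained-intron isoform in 9 (11.2%), against 12.8%, and an NMD isoform in 3 (3.75%), against 1.89%. The 9 were Rps16, Rpl5, Rps20, Rpl37, Rps26, Rpl13a, Rpl15, Rpl22l1 and Rps23. Processed transcripts led in none of the 80, against 3.61% of the others, although in Rpl11 they held 42.8% and 39.98% of TPM and in Rps27a 38.9% and 37.9%.

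In some genes the split between isoforms differed between the libraries. An isoform's share of its gene differed by over 20 percentage points in 15 of 73 ribosomal protein genes of at least 5 TPM and more than 1 isoform (20.5%), against 14.7% of all 4509 such genes. In Rpl29, isoform Rpl29-203 had 80.7% of the gene in replicate 1 and 8.52% in replicate 2, and Rpl29-201 had 2.25% and 58.0%. In Rpl19, a large-subunit protein at a bridge to the small subunit, Rpl19-201 had 95.2% and 47.9%, and Rpl19-202 had 0% and 45.4%. Within each pair these coding isoforms start at different positions and end within 1 base of each other, and Rpl29 was named after its values were seen. The deposited 95% credibility bounds of Rpl19-202 were 0.00 to 2.85 TPM in replicate 1 and 10.8 to 31.2 TPM in replicate 2. Those of Rpl29-203 were 3.76 to 8.24 and 0.04 to 4.75 TPM, and those of Rpl29-201 were 0.0004 to 3.79 and 2.92 to 10.3 TPM. The bounds of both Rpl29 isoforms overlapped between the libraries, so the difference in Rpl29 is not resolved. For whole genes, over the 80 of at least 1 TPM, the median ratio of upper to lower bound was 1.24 in replicate 1 and 1.35 in replicate 2. It was 5.45 and 16.9 for Rpl22l1, and for the other 79 genes it was at most 1.90 in replicate 1 (Rps15a) and 2.16 in replicate 2 (Rpl36a).

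Replicate 1 and replicate 2 were set side by side as a log2 ratio of expected counts scaled by TMM factors, which compares 2 libraries and not conditions. The median over 80 ribosomal protein genes was 0.34, and 69 of them (86.2%) were higher in replicate 1. Over 11275 other nuclear-encoded protein-coding genes the median was 0.08, with 55.9% higher in replicate 1. Past 2-fold and higher in replicate 1 were 2 of the 80 (2.50%), against 6.34% of all 14831 genes tested and 5.47% of the other protein-coding genes. None was past 2-fold and higher in replicate 2, against 7.16% of all genes and 3.46% of the other protein-coding genes. The shift was thus shared and small. The median of all genes was 0.02 with TMM factors. Scaling by library totals moved it by -0.19 and deposited TPM by -0.23, and the ribosomal protein genes then had medians of 0.14 and 0.02, above all genes each time.

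**Figure D5:**
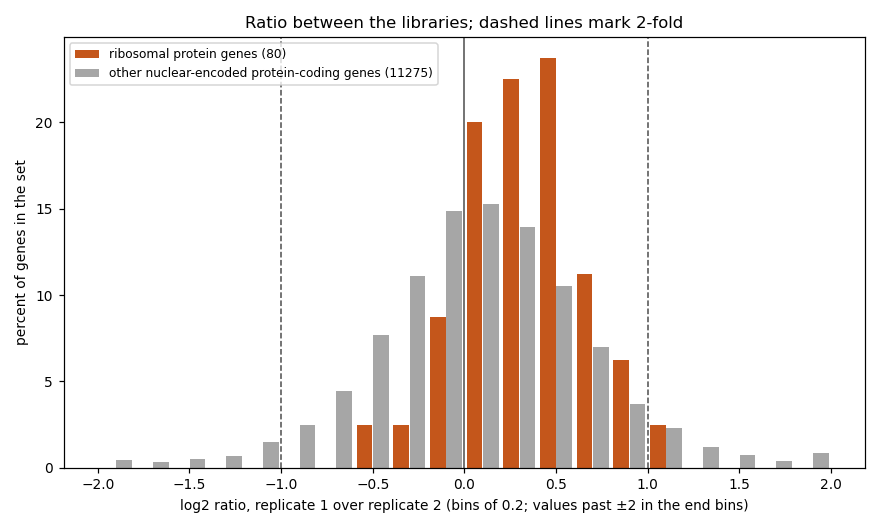
Percent of genes in bins of the log2 ratio of replicate 1 over replicate 2, ribosomal protein genes in orange and other nuclear-encoded protein-coding genes in grey. The ribosomal protein genes are centred right of 0 and only 2 pass the dashed 2-fold line.

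The 2 genes past 2-fold were Rps21 and Rpl34. Rps21 had 242 counts in replicate 1 and 73 in replicate 2, a log2 ratio of 1.19 (exact binomial 95% interval 0.82 to 1.60, counting error only). Rpl34 had 620 and 188 counts, a log2 ratio of 1.19 (0.95 to 1.43). By kallisto the log2 ratio was 0.94 for Rps21 and 1.08 for Rpl34. With library totals it was 1.001 for Rps21 and 0.995 for Rpl34. Both genes stayed higher in replicate 1, but whether each passed 2-fold depended on the setting. Among genes with a mean of at least 100 counts, Rps7 (0.95), Rps13 (0.91) and Rpl22l1 (0.90) came next on the same scale, all higher in replicate 1 also by kallisto. On the other side, Rpl28 had 345 and 334 counts, a log2 ratio of -0.48 (-0.70 to -0.26), and Rps16 had 171 and 163 counts, a log2 ratio of -0.46 (-0.78 to -0.14). Rpl7l1 (-0.32), Rps15a (-0.26) and Rpl31 (-0.20) followed. By kallisto the ratio of Rpl28 was 0.00 and that of Rpl31 was 0.06, so the direction of these 2 depends on the quantification.

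Other genes of the pathway were read from 3 lists. The ribosomal proteins with other symbols and the small-subunit scaffold Rack1 had a median of 21.1 ± 0.139 TPM (n = 2), and all 4 reached 1 TPM. Fau, a fusion of Rps30 to a ubiquitin-like protein, had 55.3 and 66.4 TPM. Rack1 had 23.4 and 23.1 TPM and Rpl36al had 13.0 and 10.02 TPM, above Rpl36a. These genes lay in the range of the ribosomal protein genes. Translation factors and related genes of the TOP class, 18 of 18 at 1 TPM or more, had a median of 16.5 ± 1.11 TPM. Eef1a1, the elongation factor that delivers tRNA, had 218 and 257 TPM, and the poly(A)-binding protein gene Pabpc1 had 120 and 168 TPM. The lowest were Eif3f (5.34 and 6.03 TPM) and Eef1d (4.83 and 7.45 TPM).

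Factors that build ribosomes were lower, with a median of 3.44 ± 0.555 TPM and 25 of 30 at 1 TPM or more in both libraries. The kinase gene Riok3, with 90.7 and 93.6 TPM, and Ncl, the gene of nucleolin, with 18.1 and 21.3 TPM, led this list. Bysl (0.49 and 0.49 TPM) and Rrp1b (0.71 and 0.80 TPM) were lowest. The log2 ratio of replicate 1 over replicate 2 had a median of 0.06 over both the TOP-class list and the assembly factors, and 12 of 18 and 16 of 30 were higher in replicate 1. In the ribosomal proteins with other symbols it was 0.46, with 4 of 4 higher in replicate 1.

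The 2 deposited quantifications placed the genes in a similar but not equal order, with a Spearman rho of 0.82 over the mean TPM of 80 genes. RSEM values were above kallisto values in 70 of 73 ribosomal protein genes of at least 5 TPM and more than 1 isoform, with a median log2 ratio of 0.90, against 0.61 over 4436 other protein-coding genes. The 3 exceptions were Rpl35a (-1.13), Rps7 (-0.16) and Rpl27 (-0.02), and Rpl36, which has 1 isoform, stood at -0.54. The largest gaps with RSEM the higher were in Rps12 (40.9 TPM by RSEM and 7.16 by kallisto), Rpl12, Rpl10 (70.0 and 22.5 TPM), Rps16 (14.1 and 5.45 TPM) and Rpl9 (26.4 and 11.4 TPM). Retained-intron shares had a Spearman rho of 0.85 between the quantifications over 64 genes. For Rps16 the share was 72.4% ± 12.3 by kallisto and for Rpl5 74.8% ± 5.82 (n = 2), still above 50%, whereas for Rpl35a it was 10.6% ± 0.254.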

How the data were processed

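Per the file headers, the authors deposited RSEM-format tables of expected counts (reads shared between features split by a model), TPM over all entries, percent of gene TPM per isoform and credibility bounds of TPM, and kallisto-format estimated counts and TPM per transcript. The annotation was GENCODE M21 on mm10, per the deposited notes. The aligner, versions and strand setting were not stated, so overlapping genes and near-identical copies may share reads. Rows that name no gene (0.766% and 0.272% of expected counts in replicates 1 and 2) were left out of library sizes. Values are RSEM unless kallisto is named. Isoform classes are the annotation's. Expected counts were rounded and scaled with edgeR 4.0.16 (TMM factors 0.935 and 1.07; R 4.3.3), with a prior count of 0.5, over genes of a mean count of at least 10; DESeq2 1.42.0 size factors were an alternative. The ratio calculation was tested on simulated data. Medians of levels used log2(TPM + 1). Intervals and floors (3 counts) cover counting error only. The genes, lists and measures were chosen with earlier results of these data known. Named were the 8 highest and 6 lowest by level, the 8 highest and 4 lowest retained-intron shares, the 5 highest NMD shares, the 5 largest library ratios each way and differences between quantifications, and a fixed set with known roles. Promoters came from the RefSeq table, other sequences from GENCODE M21. Some genes that the rule names are not reported here.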

Additional observations from a re-analysis of the deposited data

How the results depend on the processing

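Leaving out 1 replicate in turn gave a median of 20.8 to 22.2 TPM, a share of protein-coding TPM of 0.648% to 0.964%, protein-coding isoforms at 69.9% to 72.5%, retained-intron isoforms at 20.2% to 22.1%, processed transcripts at 4.51% to 4.99%, NMD isoforms at 2.76% to 3.003%, a median retained-intron share of 21.2% to 24.0%, and 10 to 11 genes above 50%. By kallisto the median was 12.1 TPM, the 4 isoform classes 64.9%, 24.8%, 7.97% and 2.38%, the median retained-intron share 29.0%, the genes above 50% numbered 15, and the median log2 library ratio was 0.51. Rescaling TPM over long RNAs only gave a median of 75.5 TPM. By expected counts the share of protein-coding genes was 0.236%, and protein-coding, retained-intron and processed isoforms held 67.7%, 25.9% and 3.66%. Chosen after the data were seen, nuclear-encoded genes alone gave a share of 1.12%, and counts outside coding exons gave a median of 13.1% and 3 genes above 50%. The library ratio was 0.14 with library totals, 0.35 with DESeq2 size factors and 0.017 with TPM. With 2 replicates, a single library always lies within the SD of the mean, so the ranges of values with an SD say nothing about stability. The number of genes above 50% has no SD. It was 8 by the mean share, and 10 and 11 with 1 library alone. Among the other settings, 19 moved a value and 8 were classed as leaving it in place. Of these 8, 6 moved a value by less than the SD, a minimum of 5 TPM left the count at 8, and no minimum on counts left the library ratio at 0.34. Levels, shares and counts cannot change sign. The median library ratio could, and it stayed positive in each setting. Ratios of single genes did change sign with library totals, such as Rpl19 from 0.13 to -0.07 and Rpl3 from 0.07 to -0.12. Retained-intron shares of 26 of 42 named genes were within 10 points by kallisto, the largest difference being 45.04 points. The causes were not tested. No paired analysis was possible because there is 1 group. Depth limits the paralogs at 0 to 3 counts, and short snoRNA entries have almost no effective length.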

Other observations

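Of the 89 genes with a matching symbol, 6 had no protein-coding transcript and were left out: Rpl32l, Rpl6l, Rps12l1, Rps3a2, Rps3a3 and Rps4l. All are annotated as processed pseudogenes, Rps4l as a transcribed one. Rpl32l and Rps3a3 had 0 counts in both libraries. Rps3a2 had 0.47 TPM in replicate 1 and 0.81 TPM in replicate 2, and Rps4l, which resembles Rps4x (18.1 and 21.99 TPM), had 0.18 and 0.16 TPM. Across the 77 genes other than the paralogs, mean TPM and the length of the longest coding isoform had a Spearman rho of -0.09, over points that share the libraries.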
